A study of Arabidopsis thaliana with 8 samples.

Results

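Chlorophyll synthesis was represented by CHLM (AT4G25080) and AT1G74470, also called CHLP, which encodes geranylgeranyl reductase. They were taken as the rows of the array table whose platform annotation names exactly 1 gene and that gene is CHLM or AT1G74470. This gave 2 rows, 1 for each gene, of 692 rows that name a single gene and 3439 rows in all. Both were above 0 in all 8 samples. The samples were total RNA of wild-type Arabidopsis thaliana, the thale cress, of ecotype Columbia-0, a standard laboratory accession, with 4 samples of plants aged 1 week and 4 samples of plants aged 4 weeks, numbered 1 to 4 within each age. Both ages share the genotype, and no mutation, transgene or treatment is given for either. The labels do not name the organs taken or say whether the samples of an age were separate plants, so the p-values cover only the spread among these samples, which may be technical.

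Chlorophyll is built in the plastid from glutamate through a chain of tetrapyrroles. Once magnesium has been inserted into protoporphyrin IX, the methyltransferase encoded by CHLM adds a methyl group from S-adenosylmethionine. Later steps close the extra ring and give protochlorophyllide, which flowering plants reduce in the light. Geranylgeranyl reductase acts at the other end of the pathway. It saturates the geranylgeranyl chain to the phytyl chain that forms the tail of chlorophyll, and its product also feeds the synthesis of tocopherol and phylloquinone. Chlorophyll a is made in all green tissues of the plant.

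The array signals carry no stated unit, and precision is limited by the number of arrays. Summed over all rows they came to between 3070 and 3374 per sample, and 11.3% to 13.6% of a sample's rows were listed at exactly 0. Samples 1 and 2 of each age resembled each other, as did samples 3 and 4, and no label explains this. A list of 23 leaf, root, flower, seed and senescence markers had 0 members on single-gene rows, so the organ makeup of the samples could not be checked.

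CHLM, the early gene of the pair, was higher at 4 weeks in every sample. Its deposited signal at 1 week was 0.597, 0.531, 0.599 and 0.631 in samples 1 to 4. At 4 weeks it was 0.767, 0.752, 0.735 and 0.844. The dimmest sample of the older plants was thus 1.17 times the brightest sample of the younger plants, and the ages did not overlap. The age means were 0.589 ± 0.0419 and 0.774 ± 0.0481 (SD, n = 4), so the samples of an age varied by 7.11% and 6.21% of their mean (coefficient of variation). In total RNA of whole samples, more cells that express a gene and more RNA per cell cannot be told apart.

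AT1G74470, the late gene, was also higher in every sample of the older plants. At 1 week its signal was 2.07, 1.94, 1.72 and 1.66 in samples 1 to 4. At 4 weeks it was 2.75, 2.59, 2.39 and 2.30. Within each age samples 1 and 2 were higher than samples 3 and 4, by 0.24 on the log2 scale at 1 week and by 0.19 at 4 weeks for the means of these pairs. The ages still did not overlap, with the dimmest 4-week sample at 1.11 times the brightest 1-week sample. The means were 1.85 ± 0.191 and 2.51 ± 0.204 (SD, n = 4).

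**Figure D1:**
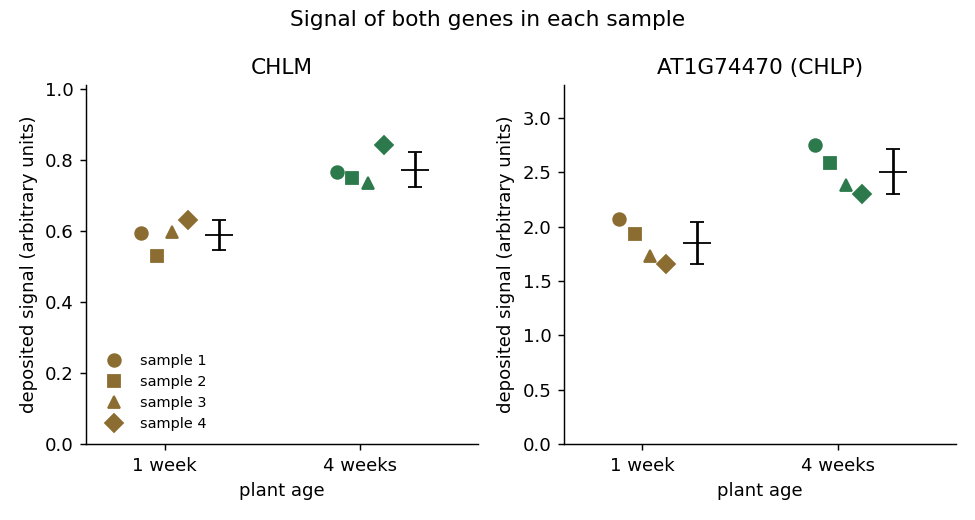
Deposited signal in arbitrary units (vertical axes, from 0) of CHLM and AT1G74470 in each sample by plant age, with 1 marker shape for each sample number and black bars for the mean and SD of 4 samples. Every 4-week sample lies above every 1-week sample in both panels, and in AT1G74470 samples 1 and 2 lie above samples 3 and 4 at both ages.

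The study set young against older plants, and the difference was fitted across the whole table. Signals above 0 were log2 transformed, those at 0 were treated as missing, and all were quantile normalized, which gives all arrays the same distribution, and each row was fitted with limma, a linear model that shares information on the spread between rows. The threshold was a Benjamini-Hochberg adjusted p of 0.05 over all rows tested. CHLM rose by 0.38 on the log2 scale (SE 0.10, adjusted p = 0.0156 by limma), which is 1.31-fold with a 95% interval from 1.11 to 1.53. AT1G74470 rose by 0.54 (SE 0.16, limma adjusted p = 0.0237), which is 1.45-fold with an interval from 1.13 to 1.86. Both members thus passed in the same direction, beside 25.3% of all 2924 tested rows and 24.1% of the 588 tested single-gene rows that were called higher at 4 weeks. In either direction, 44.6% of the single-gene rows were called. Signals without overlap and higher at 4 weeks, as both members had, were found in 26.7% of single-gene rows.

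In size both rises were ordinary for the array. The median log2 difference of the tested single-gene rows was 0.16, with quartiles of −0.38 and 0.55. CHLM lay above 65.5% and AT1G74470 above 74.3% of these rows. A difference as large as that of CHLM or larger was measured in 203 rows, of which 133 passed the threshold. For AT1G74470 these counts were 151 and 111. The 142 single-gene rows called higher at 4 weeks had a median difference of 0.77 and a lower quartile of 0.57, so both members had smaller rises than most of the rows called with them.

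**Figure D2:**
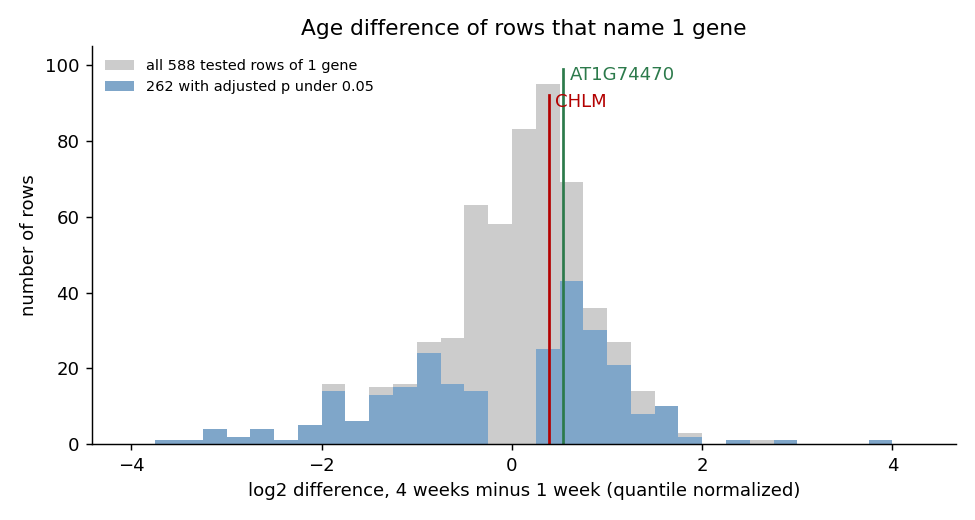
Number of single-gene rows (vertical axis) by log2 difference between 4 weeks and 1 week on the quantile normalized scale (horizontal axis), with all 588 tested rows in grey, the 262 rows past an adjusted p of 0.05 in blue, and lines at CHLM (0.38) and AT1G74470 (0.54). Both lines lie to the right of the median of 0.16 and inside the main body of the distribution.

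The precision of CHLM was high for this array. Its residual SD around the age means was 0.0806 on the log2 scale, and 1.87% of the 588 tested single-gene rows had a smaller one, while their median was 0.266. AT1G74470 had a residual SD of 0.214, and 36.2% of the rows had a smaller one. The spread of AT1G74470 lay mostly between samples 1 and 2 on one side and samples 3 and 4 on the other. Its quantile normalized log2 values were 1.09, 1.01, 0.658 and 0.603 in samples 1 to 4 at 1 week. At 4 weeks they were 1.57, 1.48, 1.24 and 1.23. CHLM had no such order at 4 weeks, where sample 4 was highest and sample 3 lowest.

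When samples with the same number were set against each other, the rise of AT1G74470 in deposited signal was nearly the same for each number. The signal at 4 weeks was 1.33, 1.34, 1.38 and 1.39 times that at 1 week for numbers 1 to 4. The highest of these ratios was 1.04 times the lowest, and 0.355% of the 564 single-gene rows above 0 in all samples had a tighter spread, where the median was 1.49. For CHLM the ratios were 1.28, 1.42, 1.23 and 1.34, with a highest of 1.15 times the lowest, and 8.33% of the rows were tighter. On the quantile normalized log2 scale the differences for numbers 1 to 4 were 0.478, 0.468, 0.579 and 0.626 for AT1G74470. Those of CHLM were 0.365, 0.502, 0.282 and 0.388. The rise of AT1G74470 was thus less even on that scale than in the deposited signals. This comparison was made after the values were seen and is a description. The labels do not say what the shared numbers mean. Deviations from the age means correlated at 0.425 to 0.527 between same-numbered samples of the ages. They correlated at 0.180 to 0.397 between other numbers within 1 and 2 or within 3 and 4.

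The age difference was also computed within samples 1 and 2 and within samples 3 and 4. For CHLM it was 0.43 on the log2 scale in the former and 0.33 in the latter. The test of the difference between them did not pass (limma adjusted p = 0.751). AT1G74470 had 0.47 and 0.60 (limma adjusted p = 0.624). Of 2814 rows measured in all samples, 9 passed that test.

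Both calls depended on whether samples 1 and 2, and samples 3 and 4, were counted as independent. With each such pair averaged to 1 value per age, the limma adjusted p was 0.264 for CHLM and 0.231 for AT1G74470, within ranges over all alternatives from 0.00215 to 0.264 and from 0.00103 to 0.231. With all samples kept, it was 0.109 and 0.0688 with a random effect for each pair. It was 0.00761 and 0.00103 with samples 1 and 2, and 3 and 4, as a block, so both calls held there. AT1G74470 also missed the threshold when 1-week sample 3 (0.0618) or 4 (0.0616) or 4-week sample 1 (0.0630) or 2 (0.0610) was left out, whereas CHLM passed without any 1 sample (limma adjusted p from 0.0232 to 0.0436). In the exact two-sided permutation test of each gene, both had p = 0.0286, the smallest that 70 assignments can give, and an adjusted p of 0.0626 over 2814 rows. The difference was positive in all 22 alternatives for both genes. It ran from 0.34 to 0.42 for CHLM and from 0.39 to 0.65 for AT1G74470. For the signals as deposited it was 0.39 for CHLM and 0.44 for AT1G74470, and after median centring 0.34 and 0.39.

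**Figure D3:**
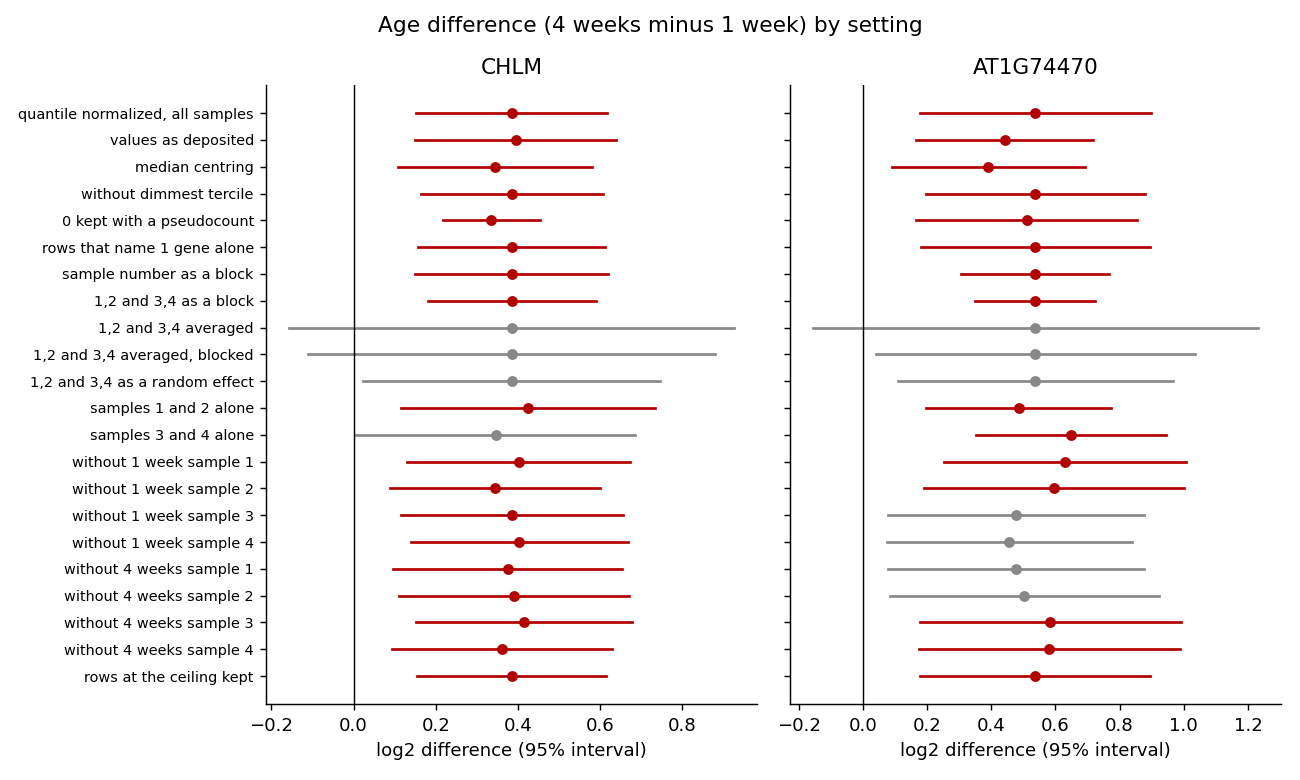
Log2 difference between 4 weeks and 1 week with its 95% limma interval (horizontal axes) for CHLM and AT1G74470, in the fit of all samples (top line) and in 21 other settings, with red for an adjusted p under 0.05 and grey for the rest. All points lie to the right of 0; grey points are those with samples 1 and 2, and 3 and 4, averaged or taken as a random effect, the fit of samples 3 and 4 alone for CHLM, and the fits that leave out sample 3 or 4 of 1 week, or sample 1 or 2 of 4 weeks, for AT1G74470.

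Whether the genes moved by the same amount was tested through the ratio of their signals within each sample, which does not change when an array is multiplied by a constant. The signals of different probes cannot be compared as levels, so only the change of the ratio is read. The ratio of AT1G74470 to CHLM ran from 2.63 to 3.64 at 1 week and from 2.72 to 3.59 at 4 weeks, and the ages overlapped almost completely. Its change was 0.048 on the log2 scale (SE 0.14, exact permutation p = 0.829, two-sided), and on the quantile normalized values it was 0.15 (exact permutation p = 0.371). The exact interval of this change, with 97.1% confidence, was −0.42 to 0.45, or from 0.747-fold to 1.37-fold. No difference between the rises was detected. Rises that differ by an amount within this interval could not be told from equal ones by this test, which does not pair samples by number.

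PRK encodes phosphoribulokinase of the Calvin cycle, which regenerates the CO2 acceptor, and was chosen with its larger rise already known, so its ratios are given as a description with no test. Its signal over that of CHLM was 1.32, 1.71, 1.73 and 1.72 in samples 1 to 4 at 1 week and 2.43 to 2.77 at 4 weeks, without overlap. The mean log2 ratio was higher by 0.68 at 4 weeks (SE 0.10). The ratio of PRK to AT1G74470 went from 0.380 to 0.656 at 1 week to 0.712 to 0.954 at 4 weeks. Its mean log2 ratio was higher by 0.64 (SE 0.20). On the deposited scale the fold of PRK was 1.61 times that of CHLM and 1.56 times that of AT1G74470.

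**Figure D4:**
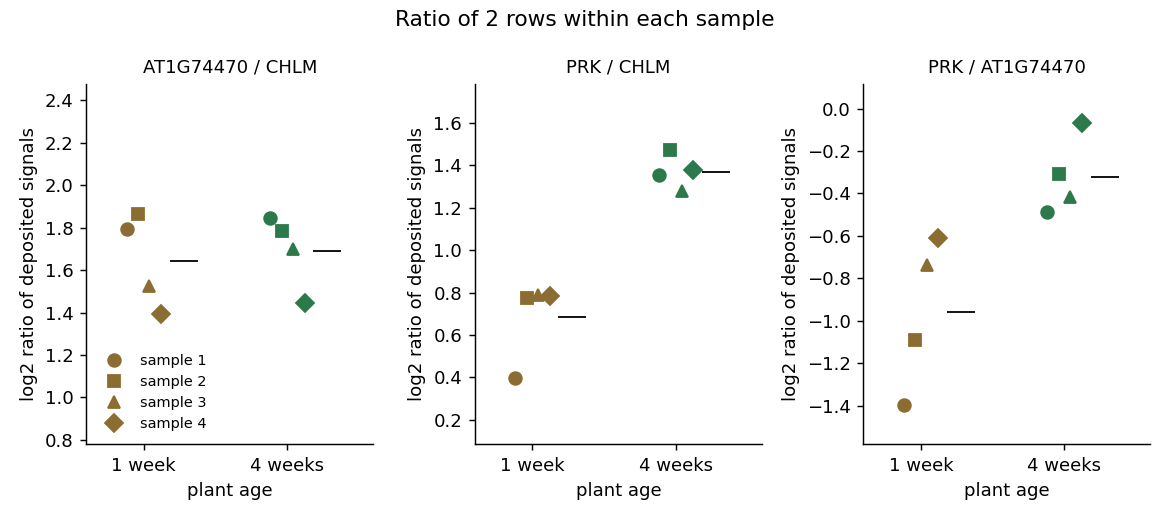
Log2 ratio of the deposited signals of 2 rows within each sample (vertical axes, each spanning the same length) by plant age, with 1 marker shape for each sample number and a bar for the mean of 4 samples. The ratio of AT1G74470 to CHLM overlaps between the ages, while both ratios of PRK are higher in every 4-week sample.

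The rest of the pigment pathways was sparsely covered by rows that name 1 gene. Of 34 listed genes of chlorophyll synthesis, 3 had such a row, namely both members and HEMA3 (AT2G31250), and 6 more lay on rows that name several genes and were not used. Lists of 5 genes of the heme and bilin branch, 11 of chlorophyll breakdown, 10 of plastid isoprenoid supply, 7 of S-adenosylmethionine supply and 5 regulators of greening had 0 members on single-gene rows. The phytol and tocopherol list and the carotenoid list had 1 each.

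HEMA3 encodes a glutamyl-tRNA reductase, the enzyme that opens tetrapyrrole synthesis, and is 1 of 3 HEMA genes on the list. Its signal was 0.375, 0.352, 0.912 and 0.798 in samples 1 to 4 at 1 week. At 4 weeks it was 0.792, 0.900, 2.71 and 1.93. Samples 3 and 4 were higher than samples 1 and 2 at both ages, the reverse of AT1G74470, and the ages overlapped across these pairs. HEMA3 rose by 1.34 on the log2 scale (SE 0.47, adjusted p = 0.0468 by limma), with each 4-week sample between 2.11 and 2.97 times the 1-week sample of the same number. The call did not hold for the signals as deposited (limma adjusted p = 0.0528), after median centring (0.0573) and on leaving out sample 1 (0.103), 2 (0.104) or 4 (0.0578) of 1 week or sample 3 (0.102) or 4 (0.107) of 4 weeks, within a range from 0.000229 to 0.215 over all alternatives. HEMA3 also missed the threshold with samples 1 and 2, and 3 and 4, averaged (limma adjusted p = 0.215) or with a random effect for each pair (0.0942). It passed with these averages blocked by pair (0.00530). All 3 tested genes of chlorophyll synthesis were called higher, HEMA3 in 11 of 22 alternatives, beside 24.1% of all tested single-gene rows. Their median difference was 0.54, the value of AT1G74470 itself, against 0.16 for those rows. As 2 of the 3 genes are the members, this mostly restates their own results.

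ZISO (AT1G10830), the zeta-carotene isomerase of carotenoid synthesis, draws on the same plastid isoprenoid precursors as the phytyl chain. It went from 0.532, 0.507, 0.765 and 0.676 at 1 week to 0.838, 0.773, 1.14 and 0.854 at 4 weeks. The ages were separated by a narrow margin, with the lowest older sample at 1.01 times the highest younger sample. ZISO rose by 0.55 on the log2 scale (SE 0.18, adjusted p = 0.0334 by limma). It missed the threshold after median centring (limma adjusted p = 0.0531) and on leaving out sample 1 (0.0730), 2 (0.0768) or 4 (0.0533) of 1 week. Leaving out sample 1 (0.0614), 3 (0.0709) or 4 (0.0504) of 4 weeks had the same outcome. The threshold was also missed with samples 1 and 2, and 3 and 4, averaged (0.214) and with these averages blocked by pair (0.0822). A random effect for each pair (0.159) and samples 3 and 4 alone (0.139) missed it too. ZISO passed in 10 of 22 alternatives, within a range of the adjusted p from 0.00810 to 0.214.

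VTE6 (AT1G78620), the phytyl phosphate kinase that returns phytol to tocopherol synthesis, was listed at 0 in sample 2 of both ages. Its other signals were 0.146, 0.657 and 0.391 in samples 1, 3 and 4 at 1 week and 0.211, 0.884 and 0.750 at 4 weeks. The log2 difference was 0.57 (SE 0.72, limma adjusted p = 0.544), with the value at 0 left out of each age. With the sample number as a block the adjusted p was 0.0342, but it was 0.0808 with samples 1 and 2, and 3 and 4, as a block and 0.0947 with these samples averaged and blocked. The difference was 0.0051 without 1-week sample 1 and 1.21 without 4-week sample 1.

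Among 6 photosynthesis genes taken for comparison, whose results were known when they were chosen, PRK rose by 1.14 (SE 0.12, adjusted p = 0.000163 by limma). PSAN, for a subunit of photosystem I, rose by 0.39 (SE 0.13, adjusted p = 0.0389 by limma). PSAN thus had a log2 difference close to that of CHLM, but its ages overlapped, at 2.32 to 3.19 and 2.79 to 3.62. It missed the threshold for the signals as deposited (limma adjusted p = 0.176), after median centring (0.239) and on leaving out sample 1 (0.0846), 3 (0.0962) or 4 (0.0542) of 1 week or sample 2 (0.0775), 3 (0.0874) or 4 (0.0888) of 4 weeks. Differences were 0.60, 1.09 and 0.89 for PSBW, PSBY and PSB27 of photosystem II and −0.46 for LHCB1.5 (AT2G34420) of the light-harvesting antenna, with limma adjusted p between 0.135 and 0.314. For the signals as deposited and after median centring LHCB1.5 was called lower, at −0.94 (limma adjusted p = 0.00901) and −0.99 (0.00794), and its ages did not overlap, while the difference of PSBW was 0.088 and 0.038. PSBY had 0.62 without 1-week sample 1. With the sample number as a block these 4 passed, at limma adjusted p between 0.00117 and 0.0286. With samples 1 and 2, and 3 and 4, averaged and blocked, PSBY (0.0107) and PSB27 (0.0325) passed and PSBW (0.0945) and LHCB1.5 (0.126) did not. For CHLM and AT1G74470, blocking by sample number gave limma adjusted p of 0.0190 and 0.00573, both under the threshold. Neither gene passed when the pairs were averaged and blocked (0.186 and 0.0860).

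**Figure D5:**
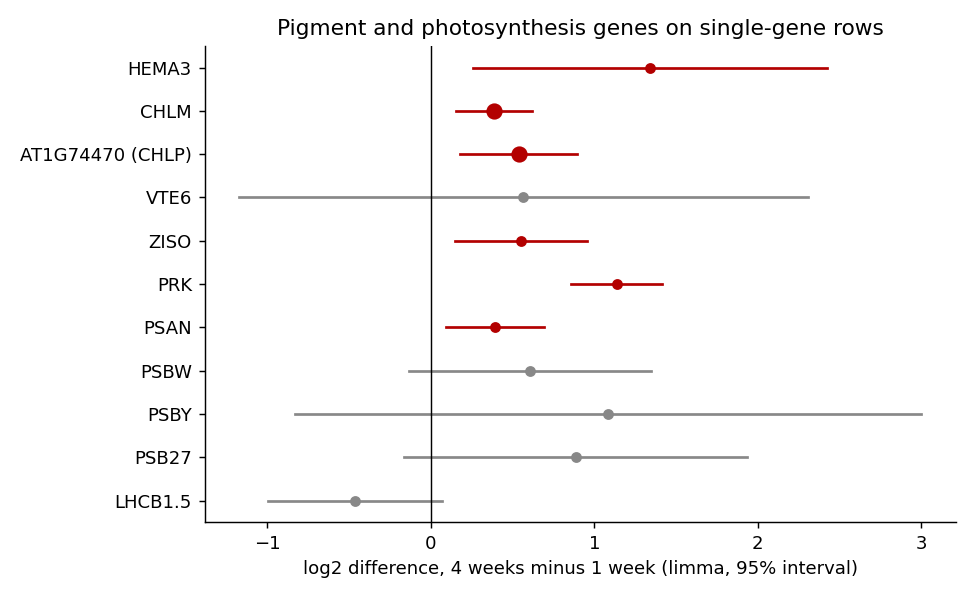
Log2 difference between 4 weeks and 1 week with its 95% limma interval (horizontal axis) for the pigment genes and the photosynthesis genes on single-gene rows, in red where the adjusted p was under 0.05 and in grey otherwise, with larger points for CHLM and AT1G74470. The interval of CHLM is the narrowest, and LHCB1.5 is the 1 gene with a difference below 0.

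Within its array, the row of AT1G74470 was brighter than 90.5% to 94.8% of the single-gene rows at 1 week and brighter than 95.1% to 96.7% at 4 weeks. CHLM was brighter than 60.3% to 65.5% of them at 1 week and 71.8% to 75.4% at 4 weeks. Brightness depends on the probe as well as on the amount of RNA, so these ranks describe the rows and do not compare the transcripts. The rank of each gene was higher in every 4-week sample than in every 1-week sample.

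Rows with the pattern most like each member were found by Pearson correlation of normalized log2 values over the 8 samples, among 564 single-gene rows measured in all of them. The samples fall into 2 ages, so these correlations hold the step between the ages as well as the spread within them, and are given as a description. For CHLM the closest were AT3G44570 (r = 0.968), AT5G52810 (0.958), AT3G09080 (0.956), AT1G31220 (0.948) and AT4G39760 (0.947). AT5G52810 is known as SARD4, an enzyme of pipecolic acid synthesis, and AT1G31220 encodes a formyltransferase of purine synthesis. AT4G39760, a Kelch repeat F-box gene, had a log2 difference of 0.43, close to that of CHLM, while the other 4 had differences from 0.72 to 1.08. For AT1G74470 the closest were CUTA (r = 0.993), SRX (0.993), AT2G28540 (0.989), AT1G74070 (0.983) and AT2G14660 (0.981). SRX is sulfiredoxin, which repairs overoxidized peroxiredoxin, CUTA encodes a copper-binding protein of the CutA family, and AT1G74070 encodes a cyclophilin-type peptidyl-prolyl isomerase. AT1G74070 and AT2G14660 had log2 differences of 0.44 and 0.48, close to that of AT1G74470, and the other 3 had larger ones, from 0.86 upward.

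The members themselves were not close in this sense. Over the 8 samples r between them was 0.721, and 121 other rows were closer to CHLM than AT1G74470 was. When each sample was expressed as its deviation from the age mean, r between the members was −0.27. By these deviations, CUTA (r = 0.991), SRX (0.988) and the rhodanese-like gene AT4G27700 (0.982) were closest to AT1G74470. All of them share the offset between samples 1 and 2 and samples 3 and 4. On the values as deposited their r were 0.963, 0.940 and 0.943. For CHLM the closest were AT5G66050 (0.921), AT2G23390 (0.898) and the nucleoporin gene AT2G05120 (0.897). Their r ran from 0.910 to 0.934 on the values as deposited. AT5G66050 and AT2G23390 had log2 differences of −3.21 and −0.74 between the ages, opposite in sign to that of CHLM, and AT2G05120 had 0.25, of the same sign.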

How the data were processed

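Total RNA of 8 samples was measured by array, and groups and numbers came from the labels' titles. The values deposited by the authors are an array intensity, linear by their range, from 0 to a ceiling of 100. Scanning, background correction and scaling are not given in the sources used here. Rows were named with GEO's platform annotation, updated through gene numbers with RefSeq's gene table (TAIR10.1): 692 rows name 1 gene (690 found in the table), 870 name several and were not named, and 1877 are unnamed here. No genome build is stated for the array, so no coordinates are printed.

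Values were log2 transformed with 0 as missing and quantile normalized, because array medians differed by 0.13. Rows with 3 measured samples in each age were fitted with limma 3.58.1 in R 4.3.3 (2924 rows). Another 2 rows at the ceiling in all samples were left out, a step chosen after seeing the data. The ratio of the members was tested by exact two-sided permutation of the ages with Python 3.11.15; the ratios of PRK, tested in the same way, are given without p because PRK was chosen for its larger rise. Simulated data were used to test the fit. The fit has no block. Same-numbered samples correlated over 0.1 in all 4 pairs in their deviations from the age means (0.425 to 0.527), which met the rule set for pairing. Other numbers within 1 and 2 or within 3 and 4 also exceeded 0.1 (0.180 to 0.397). Those between 1 or 2 and 3 or 4 had −0.419 to −0.351. The rule thus cannot tell pairing by number from the likeness within these pairs, and any pairing comes from the data. The blocked value is given where it changes a call.

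The members, the 14 gene lists (123 genes) and the tests were chosen with earlier results of these data known. Named are the members, every listed gene on a single-gene row, and, for each member, the 5 rows most correlated with it and the 3 most correlated in deviations from the age means. Alternatives covered scaling, dim rows, zeros, blocks, the pairs of samples, single samples and the test.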

Additional observations from a re-analysis of the deposited data

Results flagged for a closer look

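The ratio of PRK to CHLM was looked at again because 1 sample stood apart within its age. In 1-week sample 1 it was 1.32, while the other 3 samples of that age lay between 1.71 and 1.73. Of 28 groups of 4 samples examined in this way, 1 met the criterion, which chance meets in about 1 of 20. Without that sample the log2 change of the ratio was 0.59, against 0.68 with it.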

How the results depend on the processing

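The signs of the CHLM and AT1G74470 differences held in all 22 alternatives, and 17 and 14 of these passed the threshold. CHLM (0.38) had a limma adjusted p of 0.264 with samples 1 and 2, and 3 and 4, averaged, 0.186 with these averages blocked by pair and 0.109 with a random effect, and 0.35 with 0.0821 in samples 3 and 4 alone. AT1G74470 (0.54) had 0.231, 0.0860 and 0.0688 in the first 3 of these, and leaving out 1 sample gave 0.46 to 0.63. Both had an adjusted exact permutation p of 0.0626, the smallest obtained for any row. The count of 1337 called rows of 2924 became 400 (145 higher, 255 lower) with the averaged pairs and 727 with the random effect. By the exact test over 2814 rows it was 0, where 1285 rows had an unadjusted p under 0.05. Without 1 sample it was 1078 to 1290, and with the sample number as a replicate block 1656, which shared 1311 of the 1337. When only the 588 single-gene rows were fitted, 263 were called, against 262 of them in the fit across all rows. The ratio of AT1G74470 to CHLM changed by −0.036 without 1-week sample 4 and by −0.0029 without 4-week sample 1, within −0.036 to 0.13 over single samples left out, and by 0.15 on the quantile normalized values. With ages exchanged within sample numbers (replicate block), the PRK ratios changed by 0.68 and 0.64, where the exact p cannot go below 0.125. Without 1 sample the ratio of PRK to AT1G74470 changed by 0.49 to 0.75. Among the 11 listed genes on single-gene rows, VTE6 and 4 photosynthesis genes passed in addition in the limma fit with the sample number as a block. None of the listed genes lost its call there. The cause of these changes was not tested. For arrays, depth is not known, and signal over background could not be read from the table.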
